A study of Homo sapiens with 6 samples.

Results

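The pyruvate dehydrogenase complex and the enzymes that switch it off and on are described here as 10 genes, chosen by name from the 60612 gene rows of the series. They are 4 kinases (PDK1, PDK2, PDK3 and PDK4), 2 phosphatases (PDP1 and PDP2) and 4 structural genes of the complex (PDHA1, PDHB, DLAT and PDHX). All 10 were found, each as 1 row, and all 10 were among the 14708 rows tested. Messenger RNA was sequenced in 6 libraries of SNU-368, a line labelled as hepatocellular carcinoma. Cells with a short hairpin RNA against TFAM (shTFAM, 3 libraries) were set against cells with a control hairpin (shCtrl, 3 libraries). The labels give no other treatment, no time after hairpin delivery, and no word on whether the cells were a pool or a clone or whether libraries came from separate cultures. The p-values therefore measure the spread between these libraries, which may be technical. TFAM packages mitochondrial DNA and is needed for its transcription.

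The complex sits in the mitochondrial matrix and turns pyruvate, the end product of glycolysis, into acetyl-CoA, which feeds the tricarboxylic acid cycle and fatty acid synthesis. PDHA1 and PDHB form its first enzyme, DLAT is the acetyltransferase core, and PDHX binds the third enzyme, dihydrolipoamide dehydrogenase (DLD), to that core. The kinases phosphorylate PDHA1 and shut the complex down, and the phosphatases remove the phosphate and reopen it. PDK1 is a known target of hypoxia-inducible factors, and PDK4 is known for its induction by fasting and fatty acids. Message levels do not show how much of the complex is phosphorylated.

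Libraries held 46263488 to 61058282 counts in shTFAM and 43286024 to 50910536 in shCtrl. TFAM itself stood at 63.7, 65.0 and 56.7 CPM (counts scaled to library size with TMM factors) in shTFAM, against 82.2, 76.2 and 89.6 CPM in shCtrl. It was lower in every shTFAM library and fell by 0.42 on the log2 scale (edgeR adjusted p 0.0377), a call that no fit without a library kept (edgeR adjusted p 0.0676 to 0.0948). On the second principal component (16.6% of the variance) shCtrl 3 lay far from shCtrl 1 and 2, so values that it moves are also given without it. Mitochondrial DNA rows took 7.91 to 10.7% of counts in shTFAM and 10.1 to 14.2% in shCtrl. Of the 14708 rows, 1661 were called higher in shTFAM and 969 lower at an edgeR adjusted p of 0.05. That split was 1353 and 1266 with scaling to library totals, and 1198 and 1771 with scaling to the counts outside mitochondrial DNA. The hepatocyte markers did not bear out the labelled tissue: ALB, AFP, TTR, APOA1, APOB and FGB had 0 counts in all 6 libraries, and the 9 markers summed to 0.0871 to 0.310 FPKM in shTFAM and 0.0990 to 0.293 FPKM in shCtrl. The epithelial keratins KRT8 and KRT18 were abundant, at 115 and 157 FPKM in shTFAM and 79.5 and 174 FPKM in shCtrl, but KRT19 was under 1 FPKM in every library and the epithelial adhesion genes EPCAM and CDH1 were under the filter. KRT8 rose (log2 fold change 0.61, edgeR adjusted p 0.0160). Of 8 fibroblast and stellate markers 6 were tested and 2 rose, DCN (2.95, edgeR adjusted p 0.00276) and PDGFRB (1.69, edgeR adjusted p 0.000721). DCN passed the filter of 0.5 FPKM only through shTFAM (mean 1.48 FPKM, against 0.201 in shCtrl). The 4 not called were LUM (1.17), DES (0.39), COL1A1 (0.091) and ACTA2 (-0.68). The list summed to 44.3 to 47.7 FPKM in shTFAM and 30.3 to 44.1 FPKM in shCtrl. Most of that was COL1A1, at a mean of 29.5 FPKM in shTFAM and 29.4 in shCtrl. COL1A2 had 0 counts, and RGS5 was under the filter. The 4 endothelial markers were all under the filter, at a sum of 0.389 to 0.643 FPKM in shTFAM and 0.363 to 0.520 FPKM in shCtrl. CD68 rose (1.43, edgeR adjusted p 0.00892), and the part of these marker differences in the results was not tested. Of 6 blood cell markers only CD68 was tested, at a mean of 13.9 FPKM in shTFAM and 5.49 FPKM in shCtrl. CD14 was under the filter, and PTPRC, CD3E, HBB and LYZ had 0 counts in every library.

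Among the kinases, PDK1 rose 3.16-fold in shTFAM cells and PDK4 rose 1.33-fold, PDK3 was higher in every shTFAM library without passing the test, and PDK2 stood at about the same mean in both groups. Neither phosphatase passed the test, and the 4 complex genes all had negative log2 fold changes, -0.13 to -0.32, of which none passed. Of the 10 members, 2 were thus called higher, where 11.3% of all tested rows were called higher, and 0 were called lower, where 6.59% were. The CPM of the groups did not overlap in 3 members that were higher (PDK1, PDK3 and PDK4) and 1 that was lower (PDHA1), where 22.1% and 20.1% of all tested rows were so separated. Without adjustment, 3 members were higher and 1 was lower at an edgeR p under 0.05, where 18.7% and 16.1% of all tested rows were. DESeq2 called 3 higher and 0 lower, where it called 14.8% of all rows higher and 11.4% lower. The median log2 fold change was -0.10 over the 10 members and -0.015 over all tested rows. In bulk RNA, fewer cells that make a message and less message per cell cannot be told apart.

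**Figure D1:**
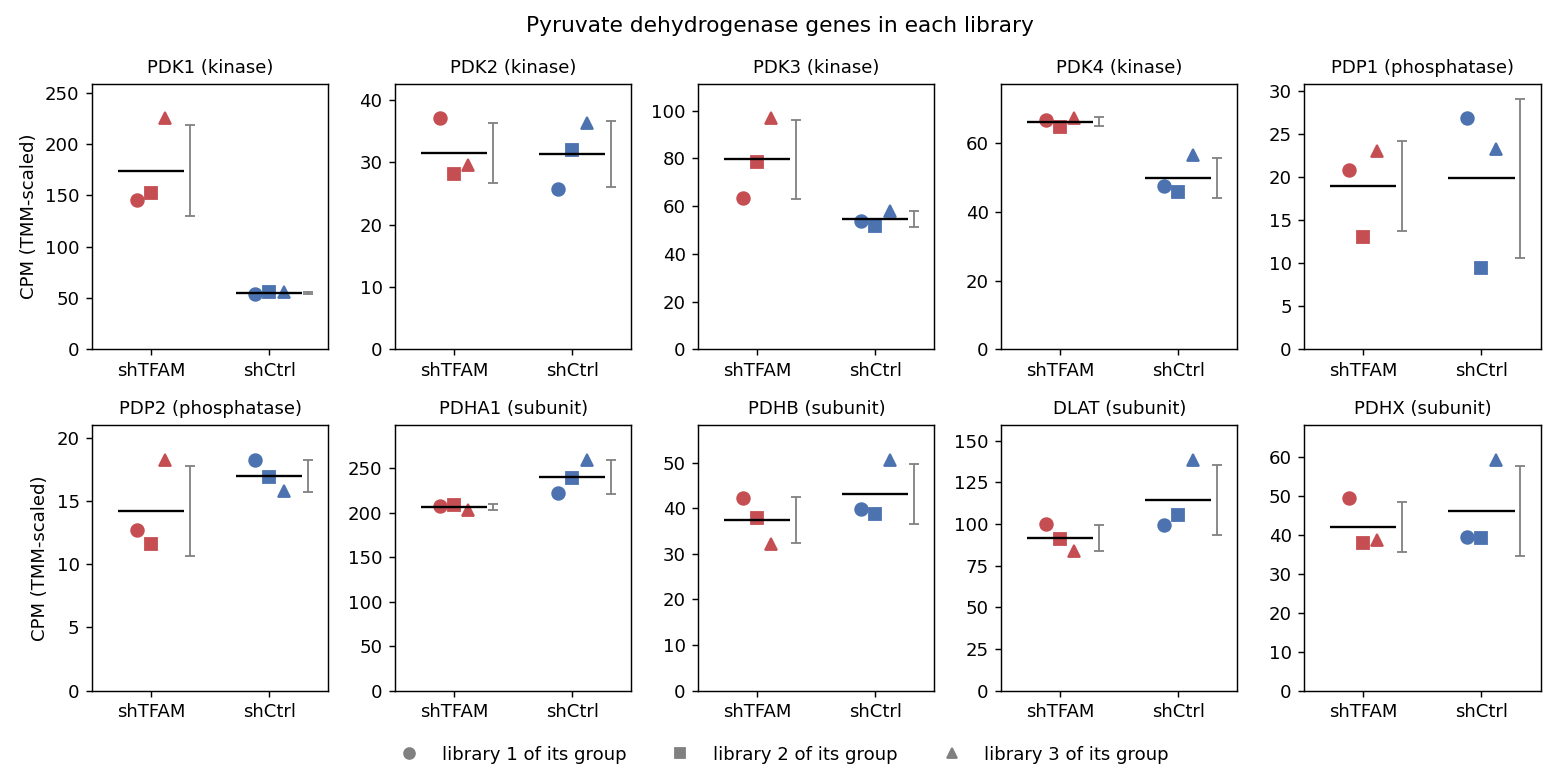
Level of each gene in each library, as CPM after TMM scaling on a linear axis from 0, with shTFAM at the left and shCtrl at the right of each panel. Points are libraries, the black bar is the group mean and the grey bar the SD over 3 libraries. PDK1 sat at 145 to 225 CPM in shTFAM, above 53.8 to 55.9 CPM in shCtrl, while the groups overlapped in PDK2, PDP1, PDP2, PDHB, DLAT and PDHX.

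Promoter sequences of the kinases that were higher in all shTFAM libraries, and of PDHA1, the gene lower in all of them, are shown because PDK1 is a known target of hypoxia-inducible factors, whose binding element has the core ACGTG. Sequences are from RefSeq (GRCh38.p14). Each is the stretch of 250 bases before an annotated start, written 5′ to 3′ on the gene's strand, with capitals marking ACGTG or its reverse complement CACGT. PDK1 has a further RefSeq start, at chr2:172555123-172555372 for the same stretch, in which neither was found. The 4 windows are chr2:172555840-172556089 (PDK1, plus strand), chrX:24465036-24465285 (PDK3, plus strand), chr7:95596517-95596766 (PDK4, minus strand) and chrX:19343677-19343926 (PDHA1, plus strand).
PDK1: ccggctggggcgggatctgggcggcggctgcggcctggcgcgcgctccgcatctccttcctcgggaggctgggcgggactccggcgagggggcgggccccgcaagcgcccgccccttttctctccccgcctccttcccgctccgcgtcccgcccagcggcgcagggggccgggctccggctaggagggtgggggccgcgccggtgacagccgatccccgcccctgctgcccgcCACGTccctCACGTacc
PDK3: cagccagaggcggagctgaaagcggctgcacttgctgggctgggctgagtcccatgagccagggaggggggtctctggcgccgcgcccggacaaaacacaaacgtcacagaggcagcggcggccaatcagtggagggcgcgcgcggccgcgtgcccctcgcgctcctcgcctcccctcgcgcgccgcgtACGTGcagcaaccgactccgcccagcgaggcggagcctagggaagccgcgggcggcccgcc
PDK4: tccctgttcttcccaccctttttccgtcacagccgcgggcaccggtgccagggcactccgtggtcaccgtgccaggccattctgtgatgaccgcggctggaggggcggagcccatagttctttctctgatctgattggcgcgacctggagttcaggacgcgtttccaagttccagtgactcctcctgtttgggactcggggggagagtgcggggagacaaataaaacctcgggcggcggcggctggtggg
PDHA1: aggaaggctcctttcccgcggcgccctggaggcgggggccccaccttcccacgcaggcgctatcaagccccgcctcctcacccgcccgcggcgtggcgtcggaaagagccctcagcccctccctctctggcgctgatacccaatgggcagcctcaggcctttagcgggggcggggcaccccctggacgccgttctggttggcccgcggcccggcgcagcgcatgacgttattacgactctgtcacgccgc

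In the PDK1 window the motif starts 17 and 8 bases before the transcript start, both times as CACGT, and in the PDK3 window 61 bases before it, as ACGTG. The PDK4 and PDHA1 windows held none. RefSeq windows were taken for 9 of the 10 members, 13 windows in all. Windows on chromosome 8, where PDP1 lies, were left out, so PDP1 has none here. ACGTG on either strand was present in 7 of these 13 windows, among them windows of PDK2, PDP2, PDHB, DLAT and PDHX, whose messages were not called, against 18.5% of the 35116 windows in the table. CACGTG, which reads as ACGTG on both strands, counts as 2 matches. Base composition differs: the member windows had a GC content of 35.6 to 79.6%, where the median over all windows was 58.0%. A second form of the core, GCGTG, searched on both strands without regard to overlap, was present in 32.2% of all windows. It occurred 3 times in the PDHA1 window and once in the PDK3 window, but not in the PDK1 or PDK4 windows. Windows of DLAT, PDHB, PDHX and PDK2 held GCGTG as well, and the PDP2 window did not. A match describes letters and is no measured binding site.

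PDK1 (ENSG00000152256, chromosome 2, 172555373 to 172599137, plus strand, hg38) is the kinase that can phosphorylate all the regulatory serines of PDHA1. It stood at 145, 152 and 225 CPM in shTFAM, against 53.8, 55.4 and 55.9 CPM in shCtrl. The shCtrl libraries had a coefficient of variation of 1.98%, and all 3 shTFAM libraries were far above them, with shTFAM 3 the highest. This gave a log2 fold change of 1.66 (SE 0.177, 95% interval 1.25 to 2.08, edgeR adjusted p 0.00304). The call held under each of the 16 alternative settings, with log2 fold changes from 1.31 to 1.76. Without shTFAM 3 it was 1.43 (edgeR adjusted p 0.00201), and with both libraries numbered 3 left out it was 1.44 (edgeR adjusted p 0.00342).

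PDK4 (ENSG00000004799, chromosome 7, 95583499 to 95596516, minus strand, hg38) stood at 66.6, 64.7 and 67.1 CPM in shTFAM, against 47.3, 45.7 and 56.4 CPM in shCtrl. The groups did not overlap, and shCtrl 3 was the control nearest to shTFAM. PDK4 thus rose by 0.41 on the log2 scale (SE 0.110, 95% interval 0.15 to 0.67, edgeR adjusted p 0.0441). This call was fragile. It ended under 11 of the 16 alternatives, with edgeR adjusted p 0.133 without shCtrl 1, 0.140 without shCtrl 2, 0.107 without shTFAM 1, 0.0951 without shTFAM 2 and 0.101 without shTFAM 3, and it held without shCtrl 3 (edgeR adjusted p 0.0205). The log2 fold change stayed between 0.28 and 0.50.

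PDK3 (ENSG00000067992, chromosome X, 24465270 to 24541862, plus strand, hg38) stood at 63.6, 78.5 and 96.8 CPM in shTFAM, against 53.7, 51.6 and 58.2 CPM in shCtrl. The groups did not overlap, and the shTFAM libraries were spread more widely than the shCtrl libraries. The log2 fold change of 0.55 (SE 0.160, 95% interval 0.17 to 0.92) missed the threshold at an edgeR adjusted p of 0.0548. It passed in DESeq2 (adjusted p 0.0175) and in edgeR without shTFAM 1 (adjusted p 0.0296).

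PDK2 (ENSG00000005882, chromosome 17, 50094737 to 50112152, plus strand, hg38), the most widely expressed kinase of the family across tissues, stood at 37.1, 28.1 and 29.5 CPM in shTFAM, against 25.7, 31.9 and 36.3 CPM in shCtrl. The groups overlapped over most of their range. Its log2 fold change was 0.011 (95% interval -0.39 to 0.41, edgeR adjusted p 0.971), so these libraries allow a change of either sign inside that interval. Its sign was negative under 7 of 15 alternatives.

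**Figure D2:**
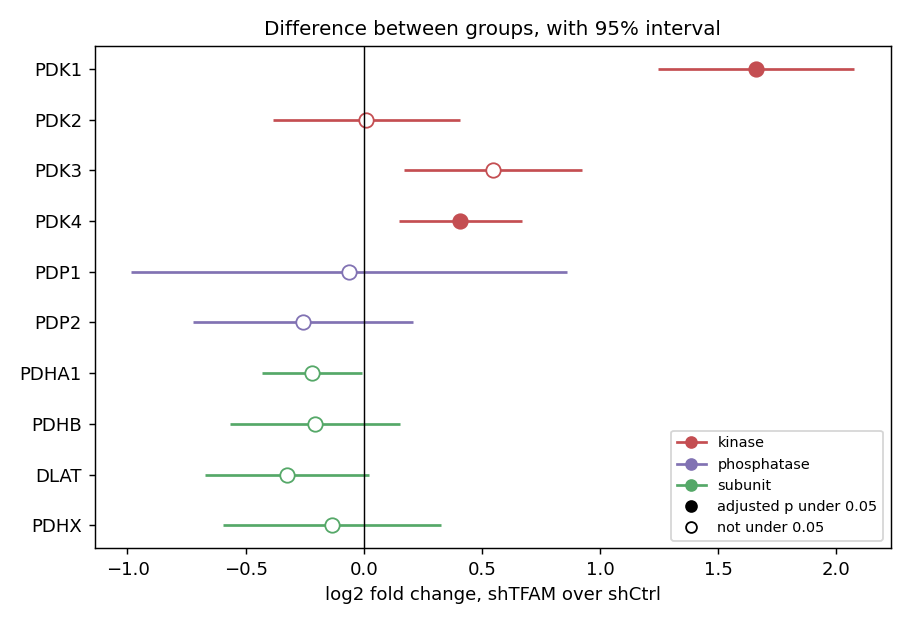
Log2 fold change of each gene, shTFAM over shCtrl, with its 95% interval from the edgeR fit, coloured by role. Filled points passed an adjusted p of 0.05, as PDK1 (1.66) and PDK4 (0.41) did. The 4 complex genes lie left of 0, from -0.13 to -0.32, with open points.

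Set against each other within libraries, the kinases stood in different proportions in the 2 groups. PDK1 made up 27.3, 28.9 and 35.7% of the summed kinase FPKM (fragments scaled to gene length and library size) in shTFAM, against 15.97, 15.9 and 13.9% in shCtrl. PDK2 made up 12.7 to 18.8% in shTFAM and 20.6 to 24.8% in shCtrl, and PDK4 34.8 to 40.8% in shTFAM and 42.9 to 45.9% in shCtrl. These ranges did not overlap between groups, whereas those of PDK3 did (13.1 to 16.9% in shTFAM, 15.9 to 17.5% in shCtrl). By this measure PDK4 held the largest share in every library other than shTFAM 3, where PDK1 led with 35.7% against 34.8%. Because PDK1 is part of the sum, its higher level lowers the shares of the other kinases. In mean FPKM, PDK4 was higher in shTFAM (11.9) than in shCtrl (9.48), and PDK2 was about level (4.71 in shTFAM, 4.93 in shCtrl).

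The ranking of the kinases depends on gene length. The ratio of counts to FPKM, with the table's own totals, corresponds to a length of 17576 bases for PDK1 and 15988 for PDK3, against 5380 for PDK4 and 6495 for PDK2. In GENCODE release 29 the exons of PDK1 together cover 14883 bases. Those of PDK2 and PDHA1 cover 5481 and 4493 bases, under the 6495 and 5334 that their FPKM correspond to by about the same factor. For DLAT the factor is smaller (4831 against 5030 bases). The absolute lengths are thus too long here, and only their proportions bear on the shares. For PDK3 the exons cover 4951 bases, far under the length that its FPKM corresponds to, and which transcripts gave the reads was not tested. A shorter length would raise the FPKM and share of PDK3 and lower the shares of the other kinases. The ranking by FPKM therefore holds only for the lengths behind the deposited FPKM. By CPM, with no length correction, PDK1 held 49.1 ± 4.05% of the kinase total in shTFAM and 28.95 ± 1.68% in shCtrl (SD, n = 3 each). Either way its share was higher in every shTFAM library than in any shCtrl library.

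PDK1 also moved relative to each of the other members. The log2 ratio of its count to theirs was higher in every shTFAM library than in any shCtrl library for all 9 of them. All 9 ratios share the PDK1 count, so they largely restate its own difference and are not separate results. The group means of these ratios differed by 1.10 against PDK3, 1.22 against PDK4, 1.62 against PDK2 and 1.60 to 1.94 against the phosphatases and complex genes. With 3 libraries against 3, an exact two-sided permutation test cannot go below a p of 0.1.

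The phosphatases were among the scarcest members, and PDP1 was the least even between replicates of the 10. PDP1 (ENSG00000164951), the calcium-stimulated isoform, stood at 20.8, 13.1 and 23.0 CPM in shTFAM, against 26.8, 9.42 and 23.3 CPM in shCtrl. The second library of each group was the lowest, and the coefficient of variation was 27.5% in shTFAM and 46.3% in shCtrl, where the median tested row had 13.4% and 13.5%. Its log2 fold change of -0.063 had a wide 95% interval (-0.99 to 0.86, edgeR adjusted p 0.931), so a change of either sign inside it remains possible.

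PDP2 (ENSG00000172840, chromosome 16, 66878589 to 66893000, plus strand, hg38), the calcium-independent isoform, stood at 12.7, 11.6 and 18.3 CPM in shTFAM, against 18.3, 16.9 and 15.8 CPM in shCtrl. shTFAM 1 and 2 were below all shCtrl libraries, and shTFAM 3 was level with the highest of them. Its log2 fold change was -0.26 (SE 0.198, 95% interval -0.72 to 0.21, edgeR adjusted p 0.395), negative under all 15 alternatives that gave a value but uneven in size, from -0.13 without shTFAM 2 to -0.48 without shTFAM 3 and -0.53 with both libraries numbered 3 left out. PDP1 passed PDP2 in FPKM in every library other than shCtrl 2, where their ratio was 0.816.

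PDHA1 (ENSG00000131828, chromosome X, 19343893 to 19361705, plus strand, hg38) encodes the subunit that the kinases phosphorylate and was the most abundant member. It stood at 207, 209 and 202 CPM in shTFAM, against 222, 238 and 260 CPM in shCtrl. Every shTFAM library was below every shCtrl library, the only complex gene among the members with that separation, which 20.1% of all tested rows showed in the same direction. PDHA1 had a log2 fold change of -0.22 (SE 0.0906, 95% interval -0.43 to -0.0058), 1.16-fold lower, at an unadjusted p of 0.0455 and an edgeR adjusted p of 0.135. It passed with scaling to counts outside mitochondrial DNA (-0.35, edgeR adjusted p 0.0363) and under quantile normalization (limma adjusted p 0.0412). The first of these moved the median of all rows to -0.15, and relative to that median PDHA1 was at -0.20, as it was in the fit with TMM scaling (-0.20).

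DLAT (ENSG00000150768, chromosome 11, 112025408 to 112064404, plus strand, hg38) stood at 99.8, 90.7 and 84.1 CPM in shTFAM, against 99.5, 106 and 139 CPM in shCtrl. The groups overlapped only by shTFAM 1 and shCtrl 1, which were level. Its log2 fold change was -0.32 (SE 0.147, 95% interval -0.67 to 0.022, edgeR adjusted p 0.166). Without shCtrl 3 it was -0.17 (edgeR adjusted p 0.322), and with both libraries numbered 3 left out -0.11.

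PDHB (ENSG00000168291, chromosome 3, 58427630 to 58433857, minus strand, hg38) stood at 42.2, 37.8 and 32.2 CPM in shTFAM, against 39.8, 38.8 and 50.7 CPM in shCtrl. The groups overlapped, and the highest library was shCtrl 3. PDHB had a log2 fold change of -0.20 (95% interval -0.56 to 0.15, edgeR adjusted p 0.381), -0.079 without shCtrl 3, -0.11 without shTFAM 3 and 0.026 with both libraries numbered 3 left out.

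PDHX (ENSG00000110435, chromosome 11, 34915829 to 35020591, plus strand, hg38) stood at 49.4, 37.9 and 38.6 CPM in shTFAM, against 39.5, 39.2 and 59.3 CPM in shCtrl. Apart from shTFAM 1 and shCtrl 3, all libraries lay close together. PDHX had a log2 fold change of -0.13 (95% interval -0.60 to 0.33, edgeR adjusted p 0.674) and turned to 0.084 without shCtrl 3. PDHX overlaps APIP on the opposite strand, a row with 36.9% as many counts, and the strand setting of the counting is unknown, though the libraries were prepared to keep the strand. For the other members, overlapping rows held at most 2.27% as many counts.

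All 4 complex genes, and PDK1, PDK2, PDK3 and PDK4 as well, were highest among shCtrl libraries in shCtrl 3. The complex genes other than PDHX were lowest among shTFAM libraries in shTFAM 3, the library with the highest PDK1 and PDK3 and the lowest share of mitochondrial DNA counts. The part of those library differences in the group differences was not tested beyond the fits that leave them out.

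**Figure D3:**
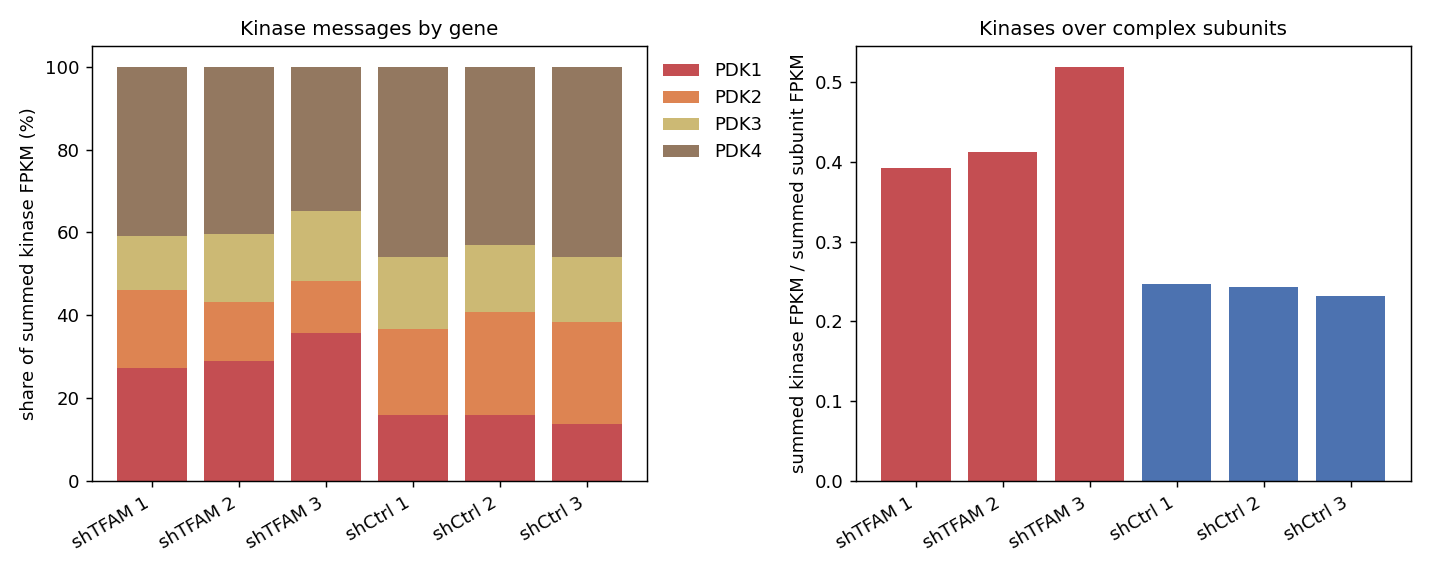
At the left, the share of the summed kinase FPKM held by each kinase in each library; at the right, the summed FPKM of the 4 kinases over that of the 4 complex genes. Bars are single libraries, with shTFAM before shCtrl. PDK1 holds 27.3 to 35.7% in shTFAM and 13.9 to 15.97% in shCtrl, and the ratio is 0.392 to 0.519 in shTFAM and 0.232 to 0.247 in shCtrl.

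The balance between kinase and complex messages differed between the groups in every library. Summed over the 4 kinases, expression was 30.1, 29.1 and 33.6 FPKM in shTFAM, against 19.7, 20.03 and 23.6 FPKM in shCtrl. Summed over the 4 complex genes it was 76.8, 70.7 and 64.7 FPKM in shTFAM, against 79.6, 82.5 and 102 FPKM in shCtrl. The ratio of the first sum to the second was 0.392, 0.412 and 0.519 in shTFAM, against 0.247, 0.243 and 0.232 in shCtrl, a mean 1.83 times as high. The shCtrl ratios lay close together and did not overlap with those of shTFAM. The kinases exceeded the phosphatases by 6.72 to 9.49 times in shTFAM and by 3.24 to 6.29 times in shCtrl. PDK1 alone was at 0.213, 0.221 and 0.337 of the PDHA1 level in shTFAM, against 0.0736, 0.0705 and 0.0653 in shCtrl. These sums are descriptions of the chosen genes and were given no test. They depend on the gene lengths behind the FPKM, that of PDK3 among them. FPKM carry no TMM factors, which were 0.951 to 0.999 in shTFAM and 1.01 to 1.04 in shCtrl. The shTFAM sums are therefore lower against shCtrl than with TMM scaling, while ratios within a library do not depend on it. The highest sum of the complex genes was that of shCtrl 3.

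In order of FPKM, PDHA1 (37.4 ± 1.65 in shTFAM, 46.0 ± 3.74 in shCtrl; SD, n = 3 each) and DLAT (17.6 ± 2.02 in shTFAM, 23.3 ± 4.403 in shCtrl) led in both groups with no overlap between them or with the next gene. PDK4, PDK1 and PDHX followed in shTFAM at 11.9, 9.53 and 9.23 FPKM, neighbours whose ranges overlapped. In shCtrl the corresponding places were held by PDHX, PDK4 and PDHB at 10.7, 9.48 and 7.89 FPKM, also overlapping, and PDK1 stood at 3.20 FPKM, within the range of PDP1 and next below PDK3, whose range only its shCtrl 3 value reached. PDP2 was the lowest member in both groups, at 1.40 FPKM in shTFAM and 1.78 in shCtrl. PDHA1 exceeded its partner PDHB in FPKM by 5.14 to 6.60 times in shTFAM and by 5.37 to 6.45 times in shCtrl, so the ratio of the 2 subunits of the first enzyme overlapped between groups.

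Genes around the complex were taken from 6 further lists, whose counts can be read against those same shares of all tested rows. Of the structural and regulatory genes outside the 10 members, DLD, the third enzyme, fell, PDPR, which restrains the phosphatase, did not pass, and PDHA2, the testis form of PDHA1, had 0 counts in all 6 libraries. DLD stood at 81.2, 83.7 and 71.9 CPM in shTFAM, against 102, 106 and 118 CPM in shCtrl. The groups were well apart, with a log2 fold change of -0.46 (SE 0.106, edgeR adjusted p 0.0282). Leaving out any 1 library ended the call (edgeR adjusted p 0.0558 to 0.0784) and kept the direction. PDPR had a log2 fold change of -0.56 (edgeR adjusted p 0.252; 0.0285 without shTFAM 2).

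MPC1 and MPC2 form the carrier that brings pyruvate into the matrix. MPC1 stood at 14.8, 14.0 and 10.5 CPM in shTFAM, against 23.3, 21.6 and 26.9 CPM in shCtrl. It fell in all shTFAM libraries, with a log2 fold change of -0.87 (SE 0.175, edgeR adjusted p 0.0187), 1.83-fold lower, though the call narrowly ended without shCtrl 1 (0.0535) or shTFAM 2 (0.0501). MPC2 was at 33.5, 32.4 and 33.2 CPM in shTFAM, against 42.3, 39.7 and 39.1 CPM in shCtrl. Its groups did not overlap either, but its log2 fold change of -0.29 missed the threshold (edgeR adjusted p 0.0689) and passed under 7 of 16 alternatives, DESeq2 among them (adjusted p 0.0359). Pyruvate carboxylase, PC, the other entry for pyruvate carbon, had a log2 fold change of 0.42 (edgeR adjusted p 0.115), and 0.28 without shCtrl 3.

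Among 16 genes that supply the lipoate and thiamine cofactors of the complex, 13 were tested, 2 fell and 0 rose, with a median log2 fold change of -0.27. In edgeR, 4 were lower and 0 higher at an unadjusted p under 0.05, and DESeq2 called 3 lower and 0 higher. BOLA3, which acts in iron-sulfur cluster delivery to lipoate synthase, fell by 0.54 on the log2 scale (edgeR adjusted p 0.0386). That call was lost whichever library was left out, at an edgeR adjusted p of 0.0626 to 0.0959. Leaving out 1 library gave 0 fallen genes in this list other than GLRX5, another iron-sulfur cluster gene, without shTFAM 1 (edgeR adjusted p 0.0402), and without shCtrl 3 the iron-sulfur assembly gene ISCA1 was called higher.

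Sister complexes oxidise other 2-oxoacids by the same chemistry. Of their 9 genes tested, 3 rose and 0 fell, with a median log2 fold change of 0.31. In edgeR 5 were higher and 0 lower at an unadjusted p under 0.05, and DESeq2 called 4 higher and 0 lower. BCKDK, the kinase that switches off the branched-chain complex and a relative of the PDK enzymes, stood at 97.3, 79.5 and 117 CPM in shTFAM, against 56.7, 54.7 and 53.1 CPM in shCtrl. It rose with a log2 fold change of 0.84 (SE 0.147, edgeR adjusted p 0.0121), a call that held under all 16 alternatives. BCKDHA, the branched-chain counterpart of PDHA1, rose by 0.88 (edgeR adjusted p 0.0313), and its call ended without shCtrl 1, shCtrl 2, shCtrl 3 or shTFAM 1 (edgeR adjusted p 0.0628 to 0.0832). OGDHL, a 2-oxoglutarate dehydrogenase-like enzyme, rose by 0.59 (edgeR adjusted p 0.0114; 0.0502 without shCtrl 2). PPM1K, the phosphatase that opposes BCKDK, had a log2 fold change of -0.70 (edgeR adjusted p 0.150) and was called lower without shCtrl 3 (edgeR adjusted p 0.0324). Leaving out 1 library gave 1 to 3 risen genes, with 1 left without shCtrl 2.

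**Figure D4:**
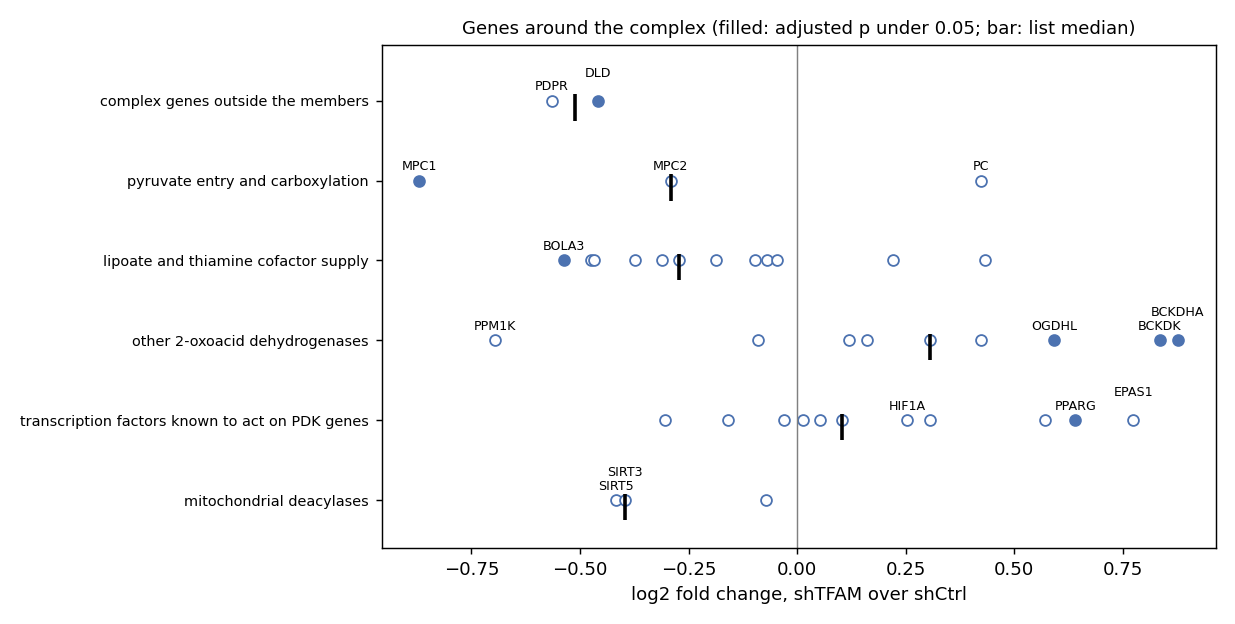
Log2 fold change, shTFAM over shCtrl, of the tested genes of 6 lists around the complex, 1 cofactor gene not drawn. Filled points passed an edgeR adjusted p of 0.05 and black bars are list medians. Cofactor genes lie mostly left of 0 (median -0.27), and genes of the other 2-oxoacid dehydrogenases mostly right of it (median 0.31).

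Of 12 transcription factors known to act on PDK genes, 11 were tested, 1 rose and 0 fell, and 4 were higher and 0 lower at an unadjusted p under 0.05. DESeq2 called 3 higher and 0 lower. The untested gene, FOXO1, which acts on PDK4 in fasting, was under the filter through its low shTFAM values, at 1.99, 1.897 and 1.21 CPM in shTFAM, against 4.08, 3.84 and 4.87 CPM in shCtrl. In the fit with no filter it was lower (log2 fold change -1.33, edgeR adjusted p 0.0295). PPARG, a fatty acid receptor of the family that induces PDK4, stood at 45.4, 45.9 and 44.3 CPM in shTFAM, against 29.2, 31.5 and 26.2 CPM in shCtrl. It rose with a log2 fold change of 0.64 (SE 0.106, edgeR adjusted p 0.0100), under all 16 alternatives. The hypoxia-inducible factor subunits, named after their values were seen, did not pass in edgeR, while DESeq2 called HIF1A (adjusted p 0.0423) and EPAS1 (adjusted p 0.00754). HIF1A stood at 208, 208 and 218 CPM in shTFAM, against 179, 179 and 174 CPM in shCtrl (log2 fold change 0.25, edgeR adjusted p 0.0645). The HIF1A value was 0.12 with scaling to counts outside mitochondrial DNA (edgeR adjusted p 0.295) and 0.18 with library totals (edgeR adjusted p 0.149). DESeq2 was the only 1 of 16 alternatives that called HIF1A. EPAS1 stood at 205, 187 and 257 CPM in shTFAM, against 149, 146 and 85.3 CPM in shCtrl (0.77, edgeR adjusted p 0.0575). The groups did not overlap in either. With both libraries numbered 3 left out, edgeR called EPAS1 (0.41, adjusted p 0.0373) and ARNT, their shared partner (0.44, adjusted p 0.0460). None of the 3 mitochondrial deacylases passed in edgeR. At an unadjusted p under 0.05, 2 of them were lower and 0 higher, and DESeq2 called 1 lower. SIRT3 and SIRT5, the most abundant, had log2 fold changes of -0.40 (edgeR adjusted p 0.108) and -0.42 (edgeR adjusted p 0.0879).

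Genes whose profiles over the 6 libraries lay nearest to PDK1, by Euclidean distance between centred log2 CPM among 5997 protein-coding rows of at least 5 FPKM, were BNIP3L, PLXND1, TTYH3, AQP3 and PLOD2. Their distances were 0.163 to 0.243, and their log2 fold changes 1.52 to 1.78. The nearest to PDK4 were PANX1, VAMP3, PAF1, ATL3 and CHMP4B, at distances of 0.0739 to 0.0960 and log2 fold changes of 0.36 to 0.43. Likeness over 6 libraries in 2 groups is set mostly by the group difference.

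By position, PDHA1 and PDK3 lie on chromosome X and DLAT and PDHX on chromosome 11. Of the 20 nearest tested rows, 1 on each side of each member, 5 were called, where 17.9% of all tested rows were: ITGA6 beside PDK1, ITGA3 beside PDK2, ADGRG2 and SH3KBP1 on either side of PDHA1 (all higher) and NAE1 beside PDP2 (lower). ITGA6, an integrin gene 48913 bases from PDK1, had a log2 fold change of 0.88 (edgeR adjusted p 0.0428). Sequence shared between members was slight: stretches of 31 bases common to 2 members made up at most 0.132% of a member's stretches in GENCODE release 29 transcripts. No other gene shared 5% or more of a member's stretches.

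**Figure D5:**
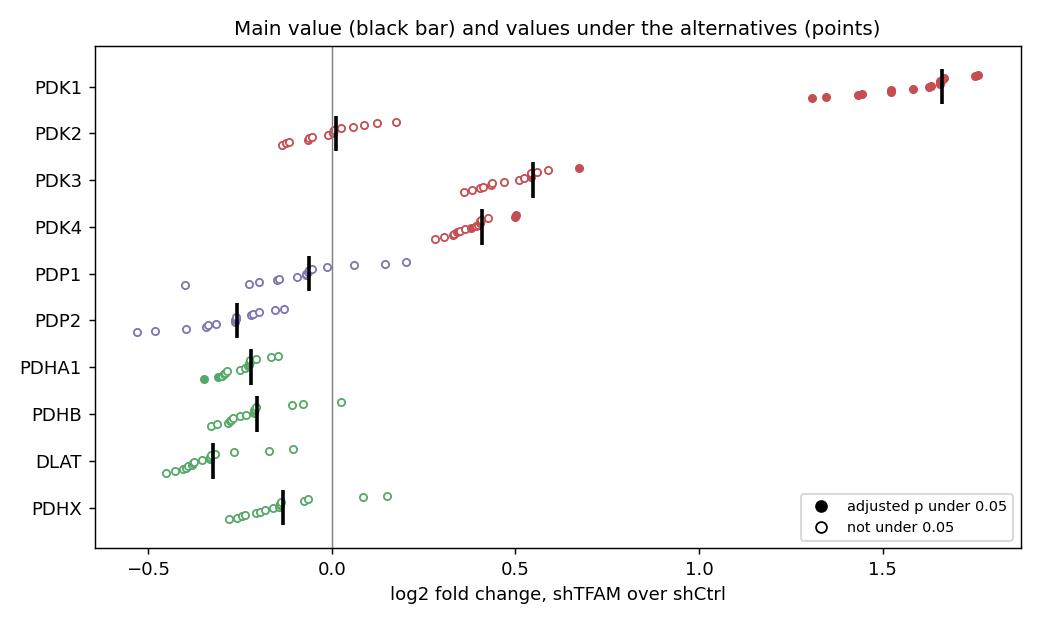
Log2 fold change, shTFAM over shCtrl, of each gene in the edgeR fit with TMM scaling (black bar) and under each alternative (points, filled where adjusted p was under 0.05). PDK1 stays between 1.31 and 1.76 with every point filled. PDK4 is filled in 5 of 16, and PDK2, PDP1, PDHB and PDHX have points on both sides of 0.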

How the data were processed

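Poly(A) RNA went into paired-end libraries whose second strand was marked with dUTP, per the labels' protocols. Tools in the submitters' processing notes are HISAT2 2.0.4, StringTie 1.3.4d, cutadapt 1.9 and Bowtie 0.12.2, and the builds hg38 and mm8, listed without their use. Each library has whole-number counts and FPKM per Ensembl gene, as the authors deposited them in 1 table per the file headers. The counter, its annotation and its strand setting are unknown. FPKM were the same counts over 1 length per gene, within an SD of 0.0017 log2 units.

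Rows with a mean FPKM of at least 0.5 (99.4 to 99.5% of counts) were tested with edgeR's quasi-likelihood test (edgeR 4.0.16, R 4.3.3, TMM scaling, trended dispersion), with two-sided p-values adjusted by Benjamini-Hochberg over all tested rows. SE comes from the fold change and its F statistic. A floor of 3 counts was 0.0519 to 0.0677 CPM, covering counting error only. No libraries agreed within sampling noise (lowest chi-square per degree of freedom 42.6). Alternatives used DESeq2 1.42.0, limma 3.58.1 on log2(FPKM + 1) and log2(FPKM + 0.1), other scalings and filters, and left-out libraries. Figures used matplotlib 3.10.9.

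The members and lists were chosen with earlier results of these data known. Named genes are the members, TFAM, DLD, up to 4 called genes per list by smallest p (the 2 most abundant where none was called) and the 5 nearest profiles of each called kinase. HIF1A, EPAS1, MPC2, PC, PDPR, PDHA2, PPM1K, GLRX5, ISCA1, ARNT, FOXO1, the markers and the neighbouring genes were named after their values were seen. Of the called cofactor genes, 1 is not reported here by name. Table coordinates equal those of GENCODE release 29 for 5 of the 10 members.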

Additional observations from a re-analysis of the deposited data

How the results depend on the processing

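PDK1 kept its direction and its call under all 16 alternatives. The count of members called higher was 1, PDK1 alone, with RLE factors, scaling to library totals, scaling outside mitochondrial DNA, no filter, and limma on log2(FPKM + 1) or log2(FPKM + 0.1); over single left-out libraries it was 1 to 2, and in DESeq2 3. The count called lower was 1, PDHA1, with scaling outside mitochondrial DNA and under quantile normalization. Counts over all rows were 1148 to 2065 over single left-out libraries, where fewer samples enter the fit, against 2630, and 3850 in DESeq2. Signs turned for PDK2, PDP1, PDHX and PDHB. PDK2 was at -0.061 with library totals, -0.12 outside mitochondrial DNA, -0.0092 under quantile normalization, -0.055 and -0.065 in limma with a pseudocount of 1 and 0.1, -0.12 without shCtrl 1 and -0.13 without shTFAM 1, within a range of -0.13 to 0.12 over single left-out libraries. PDP1 was at 0.20 without shCtrl 1, 0.061 without shCtrl 3 and 0.14 without shTFAM 2, within a range of -0.40 to 0.20. PDHX was at 0.084 without shCtrl 3, within a range of -0.28 to 0.084, and 0.15 with both libraries numbered 3 left out, where PDHB was at 0.026. The cause was not tested. The PDK1 share of kinase messages was 28.1 to 32.3% in shTFAM and 14.9 to 15.95% in shCtrl over left-out libraries, and moved to 49.1% in shTFAM and 28.95% in shCtrl by CPM, which are not divided by length. The mean FPKM minimum of 5 removed PDK2, PDK3, PDP1 and PDP2, so these have 15 alternatives. No paired analysis was possible because the titles number the 6 libraries without shared numbers between groups. With 3 libraries a group, the intervals of PDK2, PDP1 and PDHX reach past 0.3 log2 units on both sides, so the data allow changes of that size either way. Those of PDP2, PDHA1, PDHB and DLAT reach past 0.3 log2 units on the lower side only.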
